A study of Danio rerio with 15 samples.

Results

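Whole brains of 7 female zebrafish were compared by diet: 4 fish had eaten a feed with 5.6 ppm selenium, enriched with sodium selenite, and 3 had eaten a control feed with 1.4 ppm. They are 7 of the 15 fish analysed. The other 8 were males, 4 on each feed, used here for the shared estimate of the spread and for the test of a difference between the sexes. All fish were 1 year old, sexually mature, of the strain labelled Transgenic Mosaic 1, and received their feed for 14 days; what the transgene of this strain carries is not stated in the sources used here. RNA of 1 fish was hybridised to each Affymetrix array. The design text counts 8 fish per feed with both sexes equally represented, so 1 female on the control feed is not analysed here. The comparison covers all 15502 probe sets that are not controls of the manufacturer, of which 10795 carry 1 gene symbol, for 8793 genes. Values are log2 expression values, so that a difference of 1 is a 2-fold difference in signal. Control females are numbered 1 to 3 and selenium females 1 to 4. The medians of the 15 arrays lay between 7.24 and 7.35. Among females they were 7.31, 7.35 and 7.34 in controls and 7.24, 7.27, 7.29 and 7.29 on selenium, with no overlap.

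Selenium is a trace element that is built into selenoproteins as selenocysteine. In mammals the brain is among the last organs to lose selenium when the diet is short of it. Selenite is reduced inside cells at the expense of thiols such as glutathione, and in excess it is toxic. The responses considered here lie outside the selenoproteins: sulphur metabolism, mitochondria, protein folding, translation, the cell cycle, signalling, neuronal function, and genes of tissues next to the brain.

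The arrays read brain tissue. The neuronal genes elavl3, snap25a and gad1b lay between 11.6 and 12.9 in all 7 females, the myelin gene mbpa between 12.8 and 12.9, and the radial glia genes fabp7a, cyp19a1b and glula between 11.9 and 12.9. The radial glia gene gfap lay between 9.22 and 9.50. Markers of other cell types and tissues were uneven. Of microglia and leukocytes, csf1ra lay between 3.68 and 4.32, near the lowest values of the array, but ptprc lay between 6.45 and 7.85, coro1a between 9.47 and 10.9 and apoeb between 10.4 and 11.7. In the pituitary list prl lay between 3.79 and 4.29, pomca between 5.61 and 6.87 and gh1 between 4.66 and 8.76. In the retina opn1mw1 lay between 3.73 and 3.98 and gnat2 between 5.39 and 7.55, and the lens marker cryaa between 3.62 and 3.86. Of the liver, fga lay between 3.61 and 3.91, apoa1a between 4.56 and 5.58 and fabp10a between 5.14 and 5.76. Among the defining markers, slc17a6b, plp1b, mpz, mpeg1.1, hbba1, cdh5, mipa and acta1b have no probe set with their own symbol here. The haemoglobin gene hbaa1 of red blood cells lay between 13.3 and 13.7. In RNA of a whole organ, fewer cells of a type and less RNA per cell cannot be told apart. The p values of genes below weigh a difference against the spread between single fish of a group, pooled over both sexes and feeds unless stated.

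Some of the array's own controls had different means in the female diet groups, for gapdh with overlap between the fish. Control probe sets read 3 parts of gapdh, a glycolytic enzyme, and the 3′ part minus the 5′ part measures how far labelled RNA reaches towards the 5′ end. This difference was 0.98, 0.97 and 1.61 log2 units in the 3 controls and 1.84, 1.74, 1.33 and 1.44 in the 4 selenium females. Control 3 lay inside the selenium range, and the other 2 controls lay below it. The means were 1.19 ± 0.37 (SD, n = 3) and 1.59 ± 0.24 (SD, n = 4), a difference of 0.40 (exact permutation test over 35 assignments, two-sided, p = 0.143). The 3′ part hardly differed, with 13.13 ± 0.05 in controls and 13.12 ± 0.11 on selenium. The 5′ part stood at 12.15, 12.21 and 11.47 in controls and at 11.36, 11.44, 11.81 and 11.51 on selenium, a difference of -0.41 (exact permutation p = 0.171). In males the 3′ minus 5′ difference was 1.04 ± 0.16 on control feed and 0.93 ± 0.21 on selenium (SD, n = 4 each). The spiked-in transcripts bioB, bioC, bioD and Cre differed between the female groups by at most 0.08 in the same measure. In acta1, a muscle actin with control probe sets of its own, the measure was 3.35 ± 0.06 in controls and 4.31 ± 0.56 on selenium (exact permutation p = 0.0571). Its 5′ part was dim, at 4.72 ± 0.20 in controls and 4.86 ± 0.28 on selenium (SD, exact permutation p = 0.514). Its 3′ part itself lay higher in all 4 selenium females than in all 3 controls, at 8.70, 9.29, 9.56 and 9.12 against 8.15, 7.79 and 8.29 (exact permutation p = 0.0286, the smallest that 35 assignments can give). What part the gapdh difference has in any result below was not tested; with it as a covariate, 0 probe sets were called and 1429 had an unadjusted p under 0.05.

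**Figure D1:**
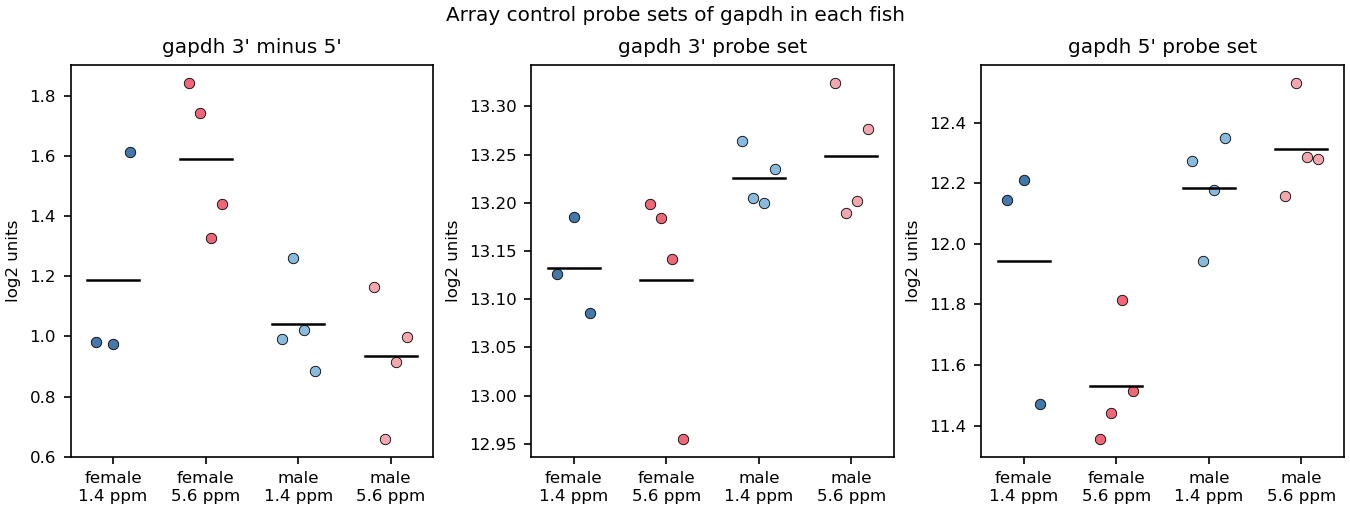
Array control probe sets of gapdh in each of the 15 fish, in log2 units; points are fish, bars are group means. In females the 3′ minus 5′ difference (left) averaged 1.19 on 1.4 ppm and 1.59 on 5.6 ppm, with 1 control at 1.61, the 3′ part (middle) averaged 13.13 and 13.12, and the 5′ part (right) 11.94 and 11.53.

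Over all genes, the diet comparison in females gave many small differences and no call. With limma and Benjamini-Hochberg adjustment, 0 of 15502 probe sets (0%) passed an adjusted p under 0.05, and the smallest adjusted p was 0.292. At an unadjusted p under 0.05 there were 1282 probe sets (8.27%), 560 higher on selenium (3.61%) and 722 lower (4.66%). Counted by fish, 1078 probe sets (6.95%) had all 4 selenium females beyond all 3 controls, 571 above (3.68%) and 507 below (3.27%). Both conditions held for 638 probe sets. Of the 1282 probe sets, whether or not their groups overlapped, 322 kept an unadjusted p under 0.05 when each female was left out in turn. The split between higher and lower depended on the scaling: with each array centred on its median, 1263 probe sets were higher and 352 lower at an unadjusted p under 0.05. That step moved the median difference over all probe sets from 0.0062 to 0.067, as the array medians lay lower in all 4 selenium females than in all 3 controls. By gene, with the brightest probe set of each, 696 of 8793 (7.92%) had an unadjusted p under 0.05 and 594 (6.76%) had groups apart. Large differences were few: 28 genes stood at least 1 log2 unit higher on selenium and 8 at least 1 unit lower, and the groups of fish were apart in 20 and 4 of them. The median 95% confidence interval of a difference reached 0.27 log2 units to either side. Without control 2, the count at an unadjusted p under 0.05 was 776.

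Of the 15 genes of smallest p below the controls, 3 act in metabolism or mitochondria. papss2b encodes a synthase of the activated sulphate that sulphotransferases use. It stood at 7.98, 8.18 and 8.39 in controls and at 7.59, 7.61, 7.20 and 6.88 on selenium. The groups did not overlap, and selenium females 3 and 4 lay lowest; the difference was -0.86 ± 0.16 (± SE, limma, n = 4 and 3, here and below). mcur1, which regulates the calcium uniporter of mitochondria, stood at 7.99, 8.13 and 8.20 in controls and at 7.71, 7.51, 7.65 and 7.40 on selenium. Here too every selenium female lay below every control, with a difference of -0.54 ± 0.10. coq7, a hydroxylase of coenzyme Q synthesis, stood at 8.68, 8.94 and 8.59 in controls and at 8.23, 8.08, 8.52 and 8.21 on selenium, and its groups were apart by less than the range within the selenium females (-0.48 ± 0.11). In males on selenium papss2b averaged 8.05 ± 0.12 against 8.00 ± 0.04 (SD, n = 4 each) on control feed, and mcur1 and coq7 differed by -0.07 ± 0.09 and 0.10 ± 0.10.

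Others of small p and wide gaps below the controls act in the nucleus. chek2, a kinase of the DNA damage checkpoint, stood at 7.50, 7.90 and 7.97 in controls and at 6.62, 6.46, 6.39 and 7.28 on selenium. Selenium female 4 lay closest to the controls, and the difference was -1.10 ± 0.25. leo1, a subunit of the Paf1 complex of transcription elongation, stood at 11.40, 11.42 and 11.09 in controls and at 10.80, 10.68, 10.76 and 10.74 on selenium. Its 4 selenium females lay within 0.12 log2 units of each other, below all controls (-0.56 ± 0.12). The SUMO protease gene senp7b (-0.56 ± 0.12), the AP-1 gene fosl1b (-0.78 ± 0.16) and her3, a hairy-related repressor of the zebrafish nervous system (-0.66 ± 0.14), were apart as well. nfia, a transcription factor of glial development, stood at 9.76, 9.86 and 9.76 in controls and at 9.30, 8.70, 8.83 and 8.93 on selenium, a gap of 0.47 log2 units between the groups (-0.86 ± 0.20, unadjusted p = 0.000908).

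The other lower genes had no single role, and 4 of them carry names without a described function. lrrc8aa, the subunit that volume-regulated anion channels need, stood at 8.86, 8.98 and 8.05 in controls and at 6.88, 8.14, 7.01 and 7.24 on selenium. Its groups overlapped, since selenium female 2 lay above control 3, while the other 3 selenium females lay at least 0.81 log2 units below every control; the difference was -1.31 ± 0.28. rab3gap1, which switches off the vesicle GTPase Rab3, stood at 7.39, 6.79 and 7.25 in controls and at 5.96, 6.73, 5.97 and 6.09 on selenium. Selenium female 2 was again the one next to the controls (-0.96 ± 0.22). ranbp9, a scaffold of the CTLH ubiquitin ligase, read by the dimmer of its probe sets, stood at 9.73, 9.10 and 9.13 in controls and at 8.11, 7.84, 8.61 and 8.21 on selenium, with the groups apart (-1.13 ± 0.24). This probe set was chosen by its small p, and the brighter one is not described here. tnr, the matrix protein tenascin-R of perineuronal nets, stood at 9.88, 9.90 and 9.97 in controls and at 9.33, 9.24, 9.30 and 9.48 on selenium, with little spread in either group (-0.58 ± 0.14). mcfd2, part of a cargo receptor that carries secreted proteins out of the endoplasmic reticulum, stood at 7.97, 8.22 and 8.01 in controls and at 7.57, 7.35, 7.41 and 7.08 on selenium (-0.71 ± 0.19). The synaptophysin-like gene sypl2a (-0.40 ± 0.08, a dimmer probe set) lay lower in every selenium female as well, as did zgc:113019 (-0.45 ± 0.08), si:dkey-22l11.6 (-0.63 ± 0.12), si:dkey-20i10.7 (-0.46 ± 0.10) and LOC562053 (-0.69 ± 0.20).

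The lower genes with wide gaps also included a plasma protein gene of the liver and a gene of an interferon-induced family. ahsg1, a fetuin that the liver secretes into plasma, stood at 6.70, 7.36 and 7.30 in controls and at 5.88, 6.12, 6.14 and 5.82 on selenium. The groups were 0.56 log2 units apart, and the difference was -1.13 ± 0.32. ifi44f1, a gene of the interferon-induced IFI44 family, stood at 6.57, 5.79 and 5.75 in controls and at 4.85, 5.28, 4.76 and 4.82 on selenium, with control 1 highest and a difference of -1.11 ± 0.28. Of 51 measured genes of the liver list, 4 were lower at an unadjusted p under 0.05 and 1 higher, where over all genes 4.5% were lower and 3.41% higher. Its mean level lay between 5.52 and 5.70 in controls and between 5.48 and 5.68 on selenium; its defining markers fga, apoa1a and fabp10a, at the levels given above, overlapped between the diets. Their part in the ahsg1 difference was not tested.

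Among the 15 genes of smallest p above the controls, ubxn4 and mvb12ba had the largest differences. ubxn4, which brings the unfolding ATPase p97 to the endoplasmic reticulum for degradation of misfolded proteins, stood at 5.69, 6.61 and 5.64 in controls and at 7.99, 6.93, 8.15 and 7.61 on selenium. All 4 selenium females lay above all 3 controls, but control 2 and selenium female 2 lay within 0.33 log2 units of each other; the difference was 1.69 ± 0.38. mvb12ba, a subunit of the ESCRT-I complex that sorts membrane proteins to lysosomes, stood at 7.23, 6.93 and 6.79 in controls and at 8.10, 8.31, 7.89 and 7.77 on selenium (1.03 ± 0.25). The gap between its groups was 0.54 log2 units. arhgef18a, a guanine nucleotide exchange factor of small GTPases, lay above all controls in every selenium female (0.84 ± 0.22), and rapgef6, one for Rap GTPases, differed by 0.40 ± 0.08.

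Other higher genes of small p encode proteins of the nucleus. rnps1, a splicing activator and part of the exon junction complex, stood at 10.21, 10.07 and 10.18 in controls and at 10.53, 10.51, 10.42 and 10.48 on selenium. Both groups were narrow and apart (0.33 ± 0.08). ddx42, an RNA helicase of the spliceosome (0.36 ± 0.09), and cenatac, a factor of the minor spliceosome (0.42 ± 0.10), lay above the controls in every selenium female. mcmbp, which binds the MCM helicase of replication, stood at 7.23, 7.10 and 7.07 in controls and at 7.38, 7.82, 7.70 and 8.19 on selenium (0.64 ± 0.16). Selenium female 1 lay closest to the controls. mllt1b, related to the elongation factor ENL, stood at 8.60, 8.62 and 8.48 in controls and at 9.15, 9.16, 9.07 and 8.64 on selenium, with selenium female 4 only 0.021 above control 2 (0.44 ± 0.11). mych, a member of the Myc family, stood at 4.90, 4.65 and 4.73 in controls and at 5.50, 5.34, 5.48 and 5.16 on selenium (0.61 ± 0.15). Its signal was dim, with an average of 4.76 in controls.

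Several higher genes of small p were dim, so that their differences rest on weak signal. bhlha9, a basic helix-loop-helix factor, stood at 4.73, 4.75 and 4.73 in controls and at 5.11, 5.07, 5.26 and 5.19 on selenium. Its controls lay within 0.014 log2 units of each other and the difference was 0.42 ± 0.08. lsr, a lipoprotein receptor of cell contacts (0.38 ± 0.08), hsd17b4, a peroxisomal enzyme of fatty acid oxidation read by a dimmer probe set (0.29 ± 0.07), pabpn1l, related to poly(A)-binding proteins (0.43 ± 0.11), and si:ch211-188c16.1 (0.60 ± 0.15) all averaged under 5 log2 units in both groups. For this set of 30 genes, 15 in each direction, the choice by p itself favours groups that do not overlap. It also picked the probe set of smallest p for ranbp9, sypl2a and hsd17b4. Brighter probe sets of these genes are not described here.

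**Figure D2:**
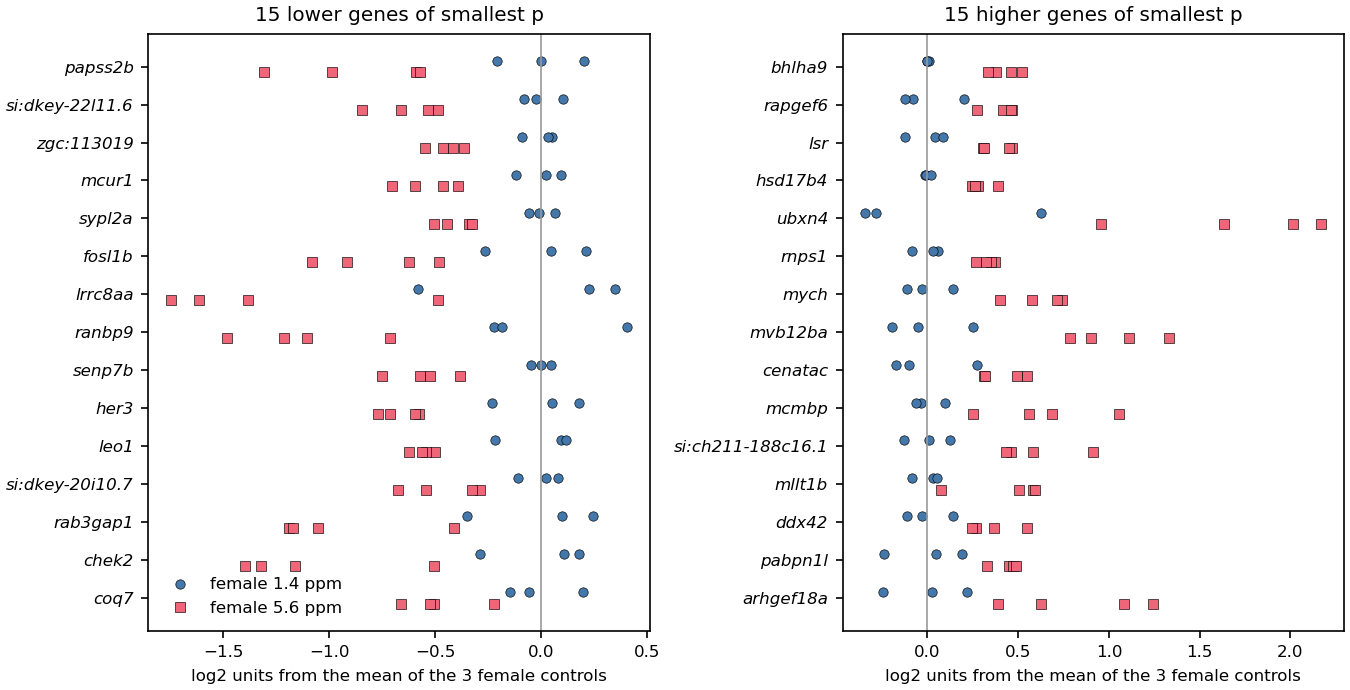
Values of each female for the 15 lower (left) and 15 higher (right) genes of smallest p, in log2 units from the mean of the 3 controls; circles are fish on 1.4 ppm and squares fish on 5.6 ppm. The groups overlap for lrrc8aa, where 1 selenium female lies above 1 control, and the widest differences on the right are those of ubxn4 (1.69) and mvb12ba (1.03).

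Among genes with a symbol, read by their brightest probe set, the keratin genes krt5, krt97 and krt91 had the 3 largest differences. krt5, a keratin of the basal epidermis, stood at 6.30, 5.73 and 5.87 in controls and at 8.96, 7.54, 10.30 and 8.02 on selenium. Every selenium female lay above every control, and selenium female 3 lay highest, 1.34 log2 units above the next fish; the difference was 2.74 ± 1.04 (unadjusted p = 0.0195). krt91 and krt97 were likewise highest in selenium female 3, at 11.36 and 10.37, and reached at most 9.01 and 7.78 in the other females. Their differences were 2.20 ± 1.05 and 2.46 ± 1.26, and si:dkey-193p11.2 (2.20 ± 1.21) and the epithelial calcium-binding gene icn2, by a dimmer probe set (1.65 ± 1.02), were highest in the same fish. krt5 varied as widely in males, at 7.18 ± 2.20 on control feed and 9.43 ± 1.43 on selenium (SD, n = 4 each).

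The members of the keratin list did not all move one way, though most stood higher. Of 50 measured genes of the keratin and epidermis list, 37 stood higher on selenium, with a median difference of 0.12 against 0.0034 over all 8793 genes. With the gapdh covariate 29 of the 50 stood higher and the median was 0.068. At an unadjusted p under 0.05 there were 2 higher and 2 lower members, where over all genes 3.41% were higher and 4.5% lower; the groups were apart in 7 higher and 2 lower members, against 3.49% and 3.26%. The simple-epithelium keratins krt8 and krt18b, and krt94, stood the other way. krt94 stood at 10.96, 11.30 and 10.96 in controls and at 10.50, 10.06, 10.70 and 10.75 on selenium, with no overlap (-0.57 ± 0.18), and krt8 at -0.44 ± 0.15, with control 1 inside the selenium range. The defining marker krt4 stood at 5.51, 7.13 and 5.55 in controls and 5.84, 5.14, 6.43 and 5.83 on selenium, with overlap, so the 2 defining markers of epidermis did not go together. The list mean lay between 6.12 and 6.16 in controls and at 6.32, 6.19, 6.93 and 6.26 on selenium. Its part in other results was not tested beyond its use as a covariate.

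Several genes of fast muscle stood higher in every selenium female, by less than krt5, krt91 and krt97. mylpfa, a myosin light chain of fast fibres, stood at 6.35, 5.66 and 6.25 in controls and at 7.28, 7.20, 7.24 and 7.41 on selenium. The 4 selenium females lay within 0.21 log2 units of each other, above all controls (1.19 ± 0.76). The muscle creatine kinase ckma stood at 6.19, 5.79 and 6.45 in controls and at 7.07, 7.71, 7.29 and 7.24 on selenium (1.19 ± 0.59), and ckmb, pvalb1, pvalb3 and a dimmer probe set of actc1b were likewise apart, with differences from 1.06 to 1.43. In limma these differences had unadjusted p values from 0.0635 upward, and the spread shared by the groups includes males on selenium, in which ckma reached from 6.89 to 10.5. The muscle list had 48 of 64 measured genes higher, a median of 0.097 and 0 members at an unadjusted p under 0.05. Groups were apart in 9 higher members (14.1%, against 3.49% over all genes) and 1 lower member (1.56%, against 3.26%). With the gapdh covariate 34 genes of this list stood higher and its median was 0.031. Its mean level lay at 5.99, 5.85 and 5.96 in controls and at 6.01, 6.15, 6.29 and 6.22 on selenium, so selenium female 1 exceeded control 1 by only 0.025. The defining marker tnnt3b, a troponin of fast muscle, overlapped, at 6.23, 5.68 and 6.61 in controls and at 6.24, 6.84, 6.81 and 6.39 on selenium (0.40 ± 0.81, unadjusted p = 0.634). desmb, an intermediate filament gene of muscle, stood lower with overlap (-0.24 ± 0.14). Of 54 lists, the means of these 2, skin and muscle, were the ones in which all selenium females lay above all controls or all below. Over all single genes the groups were apart in 6.76%, a share that 2 of 54 does not exceed.

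**Figure D3:**
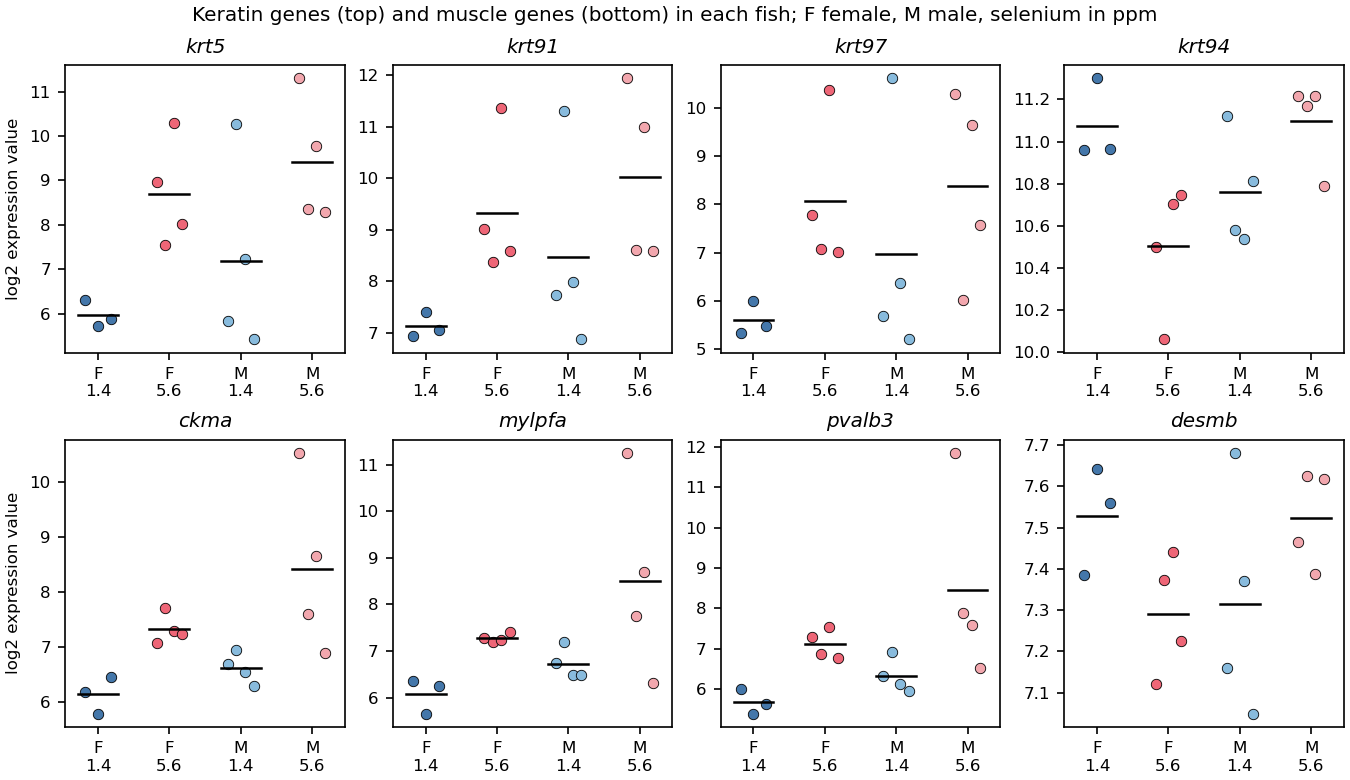
Log2 expression of 4 keratin genes (top) and 4 muscle genes (bottom) in each fish, by sex (F, M) and selenium in ppm; points are fish and bars group means, and each panel has its own axis. krt5, krt91, krt97, ckma, mylpfa and pvalb3 lie higher in every selenium female than in every control female, krt94 lies lower, and desmb overlaps; males on selenium spread from 8.28 to 11.30 for krt5.

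The medians of the gene lists, of functions and of cell types or tissues, lay close to the median over all genes. Of 54 lists, 30 had a median above 0, and list medians ran from -0.12 (pineal organ) to 0.14 (glucocorticoid genes). With arrays centred on their medians, 48 lists lay above 0, so the sign of a list median near 0 depends on the scaling. With the gapdh difference as a covariate 30 lay above 0 again, but 18 lists had changed sign. Counts of members below are read against the shares over all genes given for the keratin list.

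**Figure D4:**
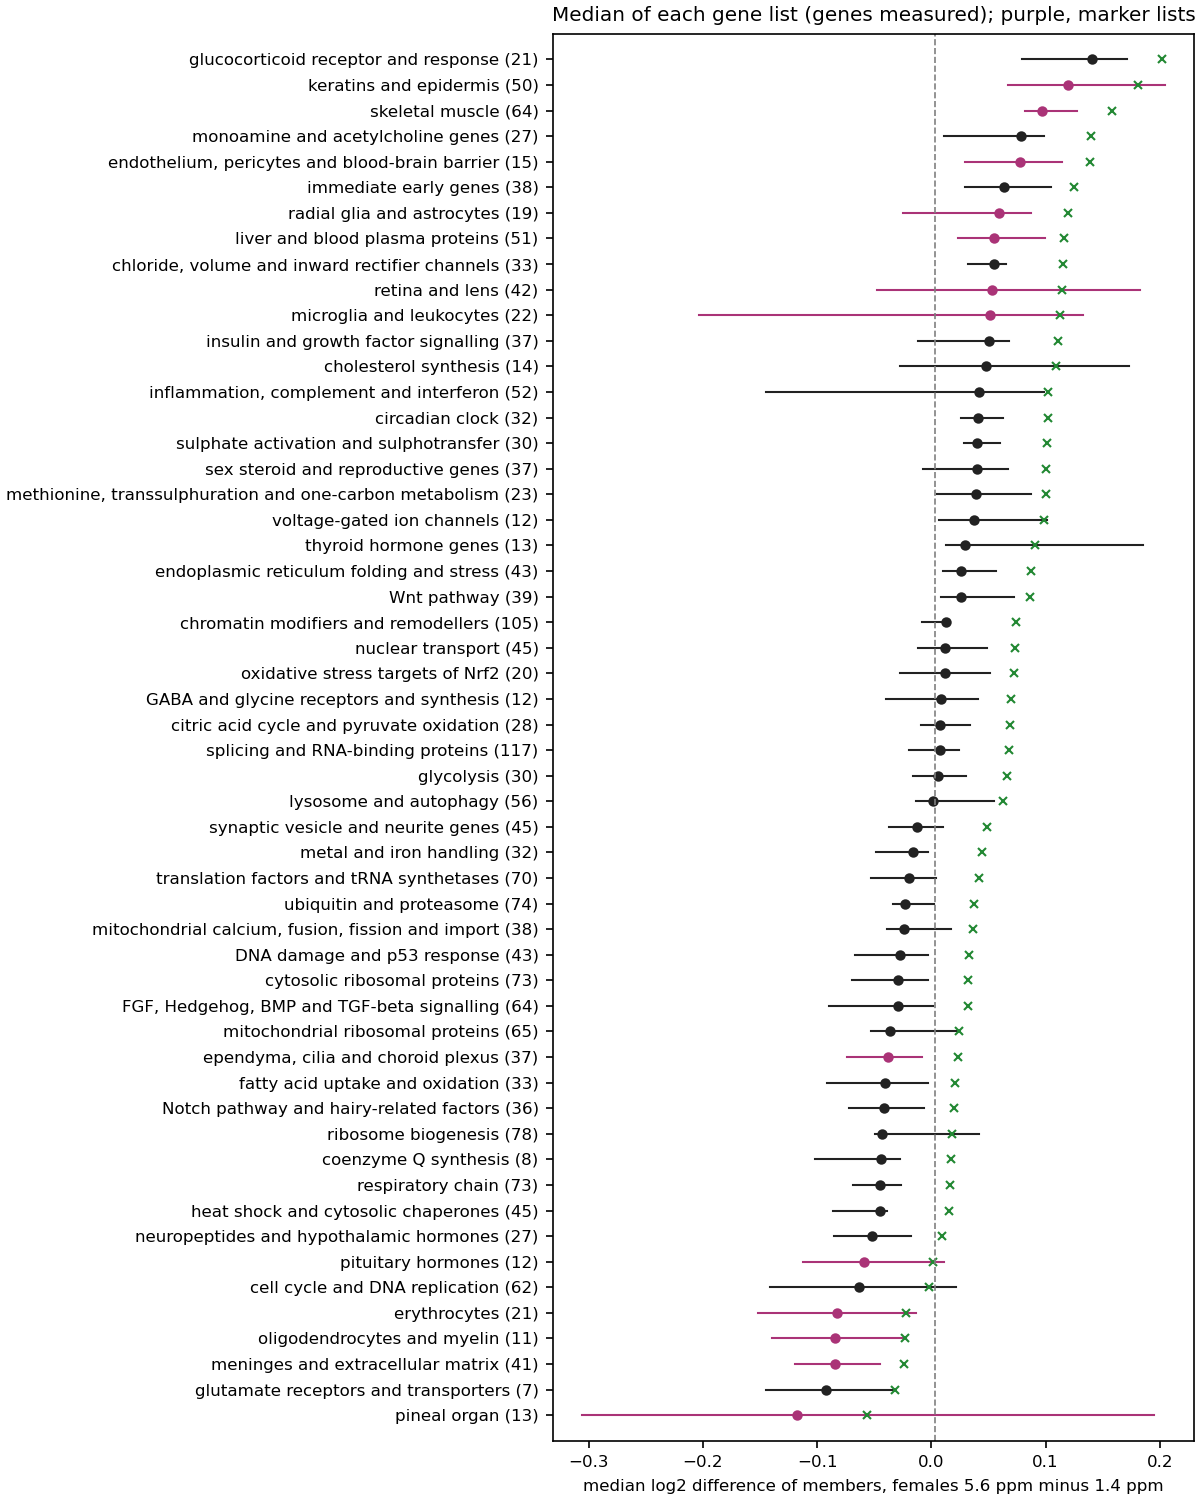
Median log2 difference (5.6 minus 1.4 ppm) in females over the measured genes of each of 54 lists, with the number of genes in brackets. Dots are the medians, lines their range when each female was left out in turn, green crosses the medians after centring each array, and the dashed line the median over all genes (0.0034); marker lists of cell types and tissues are purple. The glucocorticoid list lies highest (0.14) and the pineal list lowest (-0.12), with the widest range.

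In sulphur and one-carbon metabolism, single genes stood out of lists that did not. Of 30 genes of sulphate activation and sulphotransfer, papss2b was the 1 member at an unadjusted p under 0.05, and the median was 0.040. hs6st1a, a heparan sulphate sulphotransferase, stood higher with the groups apart (0.41 ± 0.20). Of 23 genes of methionine, transsulphuration and one-carbon metabolism, 3 were higher and 1 lower at an unadjusted p under 0.05. gcshb, the H protein of the glycine cleavage system, stood at 6.79, 7.06 and 7.01 in controls and at 7.21, 7.44, 7.24 and 7.53 on selenium, with no overlap (0.40 ± 0.12). bhmt, which remethylates homocysteine with betaine, stood at 8.40, 8.54 and 8.23 in controls and at 9.42, 8.22, 9.02 and 9.30 on selenium. Selenium female 2 lay with the controls, and the other 3 lay at least 0.48 above them (0.60 ± 0.24). mat2b, the regulatory subunit of methionine adenosyltransferase, was lower in all 4 selenium females (-0.22 ± 0.09). The 20 oxidative stress targets of Nrf2 outside the selenoproteins had a median of 0.012, with 0 members at an unadjusted p under 0.05 and 0 with groups apart.

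Respiratory chain genes differed by small amounts. Of 73 respiratory chain genes 51 stood lower, with a median of -0.045; 5 were lower at an unadjusted p under 0.05 and 0 higher, and 6 were lower with groups apart. After centring the arrays the median was 0.016, and with the gapdh covariate it was -0.045. sdhb, the iron-sulphur subunit of complex II, stood at 11.83, 11.82 and 11.75 in controls and at 11.46, 11.62, 11.58 and 11.57 on selenium (-0.25 ± 0.07). The controls lay within 0.08 log2 units of each other, above every selenium female. idh3b, a subunit of isocitrate dehydrogenase in the citric acid cycle, stood between 10.89 and 11.05 in controls and at 10.67, 10.67, 10.80 and 10.63 on selenium by its brightest probe set, again with no overlap (-0.29 ± 0.07). Smaller differences stood in ndufa12 of complex I (-0.19 ± 0.08), cox4i2 (-0.17 ± 0.07) and cox7a2l (-0.15 ± 0.07), with groups apart. uqcrfs1, the Rieske protein of complex III, differed by -0.25 ± 0.08, but selenium female 4 and control 3 overlapped. phb, a prohibitin of the inner membrane, stood higher in all 4 (0.21 ± 0.07). chchd10 stood at -0.29 ± 0.11, with control 3 among the selenium females.

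Genes of fat metabolism stood on both sides: of 33, 3 were higher and 4 lower at an unadjusted p under 0.05. aacs, which makes acetoacetyl-CoA from ketone bodies, stood at 4.81, 3.75 and 3.67 in controls and at 4.98, 4.98, 4.89 and 5.35 on selenium. Control 1 lay next to the selenium females and the other 2 controls near the lowest values of the array, so that the size of the difference (0.97 ± 0.31) rests on dim signal. acsl1a, which activates long-chain fatty acids, stood at 10.55, 10.69 and 10.48 in controls and at 9.92, 9.88, 10.40 and 10.27 on selenium, with selenium female 3 closest to the controls (-0.46 ± 0.14). angptl4, an inhibitor of lipoprotein lipase (0.62 ± 0.27), and the thiolase acaa2 (0.16 ± 0.07) stood higher, and the enoyl-CoA isomerase eci2 (-0.20 ± 0.07) and the dehydrogenase acadvl (-0.31 ± 0.13) lower. In cholesterol synthesis 11 of 14 genes stood higher, with a median of 0.048 that ran from -0.028 to 0.17 when single females were left out. With the gapdh covariate 5 of the 14 stood higher and the median was -0.044. dhcr7, the last reductase of that pathway, stood at 10.18, 9.92 and 7.74 in controls and at 10.82, 10.38, 10.78 and 10.83 on selenium; the groups were apart, and control 3 alone set most of the difference (1.42 ± 0.80, or 0.65 without it). In glycolysis 16 of 30 genes were higher, with a median of 0.0055. With the gapdh covariate 10 were higher and the median was -0.036. hk2, a hexokinase, stood at 0.28 ± 0.11 and the triose phosphate isomerase tpi1b at -0.11 ± 0.06.

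Protein folding lists had small medians. Of 45 heat shock and cytosolic chaperone genes 30 were lower (median -0.045), 1 at an unadjusted p under 0.05: hsp90aa1.2, an inducible HSP90, with 11.94, 11.80 and 11.49 in controls and 11.68, 11.35, 11.31 and 11.13 on selenium (-0.37 ± 0.13). Its groups overlapped at control 3 and selenium female 1. Of 43 genes of endoplasmic reticulum folding and stress 26 were higher (median 0.026), 4 of them at an unadjusted p under 0.05 and 0 lower. After centring the arrays the medians of both lists lay above 0, at 0.016 and 0.087, and the difference between the lists was not tested. Besides ubxn4 these were atf4b, a transcription factor of the integrated stress response, at 12.07, 12.04 and 12.11 in controls and at 12.40, 12.14, 12.36 and 12.62 on selenium (0.31 ± 0.10), sec61g of the translocation channel (0.28 ± 0.11), and the disulphide isomerase pdia6 (0.57 ± 0.23), whose value was 0.17 without control 3. The groups of atf4b did not overlap. Its paralogue atf4a stood at 0.23 ± 0.11 and the degradation gene herpud1 at 0.38 ± 0.19, each with overlap. In the ubiquitin and proteasome list (74 genes, median -0.023), ubxn6, another p97 cofactor, stood lower in every selenium female (-0.43 ± 0.12), as did the proteasome subunit psma6a (-0.20 ± 0.09).

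In translation, 3 tRNA synthetases stood higher and several translation factors lower. cars1, the cysteinyl-tRNA synthetase, stood at 8.39, 8.09 and 8.45 in controls and at 8.73, 8.64, 8.68 and 9.23 on selenium. The groups were apart, with selenium female 4 highest (0.51 ± 0.15). mars1 for methionine (0.34 ± 0.14) and vars1 for valine (0.26 ± 0.10) were apart as well. eif4g2b (-0.30 ± 0.08), an initiation factor, gspt1 (-0.23 ± 0.08), a termination factor, and eef1g (-0.18 ± 0.07), a subunit of the elongation factor, lay below the controls in all 4 fish. The list of 70 genes was balanced, with 3 higher and 3 lower at an unadjusted p under 0.05 and a median of -0.019. Of 73 cytosolic ribosomal proteins 53 stood lower (median -0.029) with 0 at an unadjusted p under 0.05, and of 65 mitochondrial ones 38 (median -0.036) with 2, both lower. With the gapdh covariate 38 genes stood higher in each of these lists, with medians of 0.011 (cytosolic) and 0.017 (mitochondrial). Ribosome biogenesis had 3 higher and 4 lower of 78; nip7 (0.42 ± 0.11), utp4 (0.29 ± 0.09) and nolc1 (0.24 ± 0.08) stood higher with groups apart.

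Cell cycle and DNA damage lists held few members of small p. Of 62 cell cycle genes 41 were lower, with a median of -0.063 (from -0.14 to 0.022 with single females left out) and 3 lower members at an unadjusted p under 0.05 (4.84%, against 4.5% over all genes). After centring the median was -0.0024, and with the gapdh covariate it was -0.135, with 16 of the 62 higher. In each direction 1 member was apart. The mitotic genes cdc20 (-0.54 ± 0.20) and plk1 (-0.45 ± 0.19) had their highest female value in control 3, and their differences were -0.33 and -0.21 without it. Of 43 DNA damage and p53 genes 27 were lower (median -0.028, or 0.033 after centring), 3 at an unadjusted p under 0.05, among them chek2 and rb1. rb1, the retinoblastoma gene that restrains entry into the cycle, stood at 8.59, 8.71 and 8.37 in controls and at 8.03, 8.24, 8.12 and 8.36 on selenium. Selenium female 4 came within 0.010 log2 units of control 3 without overlap (-0.37 ± 0.12).

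Immediate early genes, which neurons switch on within minutes of activity, split. Of 38, 23 were higher (median 0.064), and at an unadjusted p under 0.05 there was 1 higher and 4 lower. atf3, a stress-induced member of the ATF family, stood at 7.55, 7.22 and 7.74 in controls and at 8.17, 8.01, 8.72 and 9.69 on selenium. All selenium females lay above the controls and spread over 1.68 log2 units (1.15 ± 0.33). fosl1b has been described, and klf2b stood at 8.22, 8.34 and 8.32 in controls and at 7.73, 7.95, 8.18 and 7.81 on selenium (-0.37 ± 0.13), below all controls. bdnf, the neurotrophin gene, stood at 9.57, 9.73 and 9.10 in controls and at 9.01, 9.18, 9.10 and 8.93 on selenium (-0.41 ± 0.13), with control 3 among the selenium females.

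Signalling and clock genes gave single members rather than lists. il17rd, an inhibitor of FGF signalling, stood at 7.65, 7.90 and 7.61 in controls and at 7.38, 7.39, 7.18 and 7.07 on selenium, with the groups apart (-0.47 ± 0.13). In the same list of 64 FGF, Hedgehog, BMP and TGF-beta genes, the morphogen gene shha (0.20 ± 0.07) and the signal transducer smad2 (0.24 ± 0.10) stood higher and smad1 lower (-0.90 ± 0.36). ctnnb1, encoding beta-catenin of the Wnt pathway, stood at 0.28 ± 0.10, and control 3 overlapped with the selenium range. Of 32 clock genes, bmal1b, an activator of the clock, stood at 7.30, 8.43 and 8.37 in controls and at 6.58, 7.46, 7.26 and 6.78 on selenium. Control 1 lay within the selenium range and the other 2 controls far above it (-1.01 ± 0.33). The repressors nr1d2b (-0.31 ± 0.09) and cry1a (-0.48 ± 0.17) stood lower with overlap, and cry4 higher without (0.33 ± 0.13). The time of day at which each brain was taken is not given in the sources used here.

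Glucocorticoid genes had the highest list median, 0.14, with 15 of 21 higher; with the gapdh covariate it was 0.0081. The members at an unadjusted p under 0.05 were ddit4, an inhibitor of TOR signalling (0.20 ± 0.09), the transcription factor cebpb (0.35 ± 0.15) and pck1, an enzyme of gluconeogenesis (0.29 ± 0.12). ddit4 and pck1 were dim, at under 5 log2 units in every female.

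Of 27 neuropeptide genes 18 stood below the controls (median -0.052), 3 at an unadjusted p under 0.05 and 0 higher. With the gapdh covariate the median was 0.0035 and 14 stood higher, and after centring the median was 0.0094. oxt, the gene of the oxytocin-like peptide of the hypothalamus, stood at 12.81, 12.81 and 11.93 in controls and at 11.87, 11.08, 11.73 and 12.03 on selenium. Control 3 and selenium female 4 overlapped, and the other 2 controls lay 0.78 above every selenium female (-0.84 ± 0.32). gnrh3, a gonadotropin-releasing hormone gene, stood at 7.99, 7.30 and 8.12 in controls and at 6.52, 7.52, 6.42 and 7.33 on selenium, again with overlap (-0.86 ± 0.31). avp, of the vasopressin-like peptide (-0.36 ± 0.17), and nucb2b, a precursor of nesfatin (-0.25 ± 0.11), lay below the controls in all 4 selenium females. In the pituitary, gh1 (growth hormone) was high in control 3 alone, at 8.76 against at most 5.15 in the other 6 females. In the list of sex steroid and reproductive genes, zp3b, an egg coat gene (0.52 ± 0.24), and the dim steroid dehydrogenase gene hsd3b2 (0.21 ± 0.09) stood higher with groups apart.

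Neuronal and ion transport genes differed one by one. atp1b1b, a beta subunit of the sodium pump, stood at 12.52, 12.44 and 12.30 in controls and at 12.25, 12.03, 12.16 and 12.17 on selenium, with no overlap (-0.27 ± 0.07). syt9a, a calcium sensor of vesicle release, stood at 9.73, 9.53 and 9.57 in controls and at 9.89, 9.82, 9.97 and 9.94 on selenium (0.30 ± 0.08), above all controls. The vesicle GTPase genes rab11a (-0.50 ± 0.14) and rab3c (-0.24 ± 0.08) stood below them. The pan-neuronal RNA-binding gene elavl3 stood at -0.23 ± 0.11 with overlap. Of 45 synaptic and neurite genes, 1 was higher and 5 lower at an unadjusted p under 0.05, with a median of -0.012; of 33 chloride, volume and inward rectifier channel genes, 1 and 5, with a median of 0.055. The water and solute channel gene aqp8a.1 stood lower (-0.42 ± 0.14).

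Metal transport and immune genes followed. slc40a1, ferroportin, the exporter of iron, stood at 10.02, 9.99 and 10.30 in controls and at 9.63, 9.91, 9.62 and 9.58 on selenium. Selenium female 2 lay 0.28 above the other selenium females and still below all controls (-0.41 ± 0.10, unadjusted p = 0.000733). slc39a3, a zinc importer, stood at 8.93, 8.73 and 9.11 in controls and at 8.61, 8.53, 8.43 and 8.56 on selenium (-0.39 ± 0.13), also with no overlap. They were the 2 members of 32 metal and iron genes at an unadjusted p under 0.05. Of 52 genes of inflammation, complement and interferon, 2 were lower at that level, the chemokine gene cxcl12a (-0.37 ± 0.12) and the haptoglobin gene hp (-0.53 ± 0.23). The mean of this list was highest in selenium female 2, at 7.59 against 7.10 to 7.16 in the other selenium females.

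Nuclear transport and chromatin lists stayed near the whole. The importin genes ipo7 (-0.21 ± 0.07) and kpna4 (-0.21 ± 0.07) stood lower and the pore gene nup85 higher (0.26 ± 0.11), each with groups apart. Of 105 chromatin genes, 3 were higher and 4 lower at an unadjusted p under 0.05: the acetyltransferase crebbpa (0.31 ± 0.09) and the deacylase sirt6 (0.41 ± 0.17) stood above the controls in all 4 fish, and leo1 and its Paf1 partner cdc73 (-0.22 ± 0.08) below. Of 117 splicing and RNA-binding genes, 3 were higher and 5 lower, among the latter the kinase clk4a (-0.33 ± 0.10).

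The lists of brain cell types held few members at an unadjusted p under 0.05. Of 11 oligodendrocyte and myelin genes 10 stood lower (median -0.084), with 0 at that level, and mbpa itself differed by -0.02 ± 0.07. Radial glia and astrocytes had 14 of 19 higher (median 0.059) and 0 at that level. With the gapdh covariate 8 of the 19 stood higher and the median was -0.033. Microglia and leukocyte genes had 13 of 22 higher, or 9 with the gapdh covariate. Their mean was 8.37 in selenium female 2, against 7.64 to 7.67 in the other selenium females and 7.52 to 8.11 in controls. Meninges and matrix had 24 of 41 lower, with tnr, lama5, a laminin chain (-0.34 ± 0.12), and thbs4b (-0.41 ± 0.14) at an unadjusted p under 0.05, and its collagen markers col1a1a and col1a2 varied by over 2 log2 units within each diet. Ependyma and cilia had 21 of 37 lower, with rfx2, a regulator of ciliary genes (-0.33 ± 0.09), and the dynein assembly gene zmynd10 (-0.52 ± 0.18) among 3 at that level. The retina and lens list was high in control 2, at 6.02, and in selenium female 2, at 5.85, and between 4.82 and 5.11 in the other 5 females.

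Whether the female differences were particular to females was tested as female minus male. With limma, 0 of 15502 probe sets (0%) passed, with a smallest adjusted p of 0.442, and 1298 (8.37%) had an unadjusted p under 0.05. Within males alone 0 passed, with a smallest adjusted p of 0.478, and 811 (5.23%) had an unadjusted p under 0.05. For leo1 the female minus male difference was -0.97 ± 0.17 (unadjusted p = 4.44e-05), and for sdhb -0.53 ± 0.10 (unadjusted p = 8.65e-05): in males on selenium sdhb stood at 0.28 ± 0.07 and leo1 at 0.42 ± 0.11. papss2b gave -0.91 ± 0.21, ranbp9 by its dimmer probe set -1.38 ± 0.33, rab3gap1 -1.25 ± 0.30 and mych 1.02 ± 0.20. The genes given here were named for their difference in females, which is part of this contrast. Small unadjusted p values among them therefore follow in part from that choice. For chek2 the female difference was -1.10 ± 0.25 and the male one -0.45 ± 0.23, with a female minus male value of -0.64 ± 0.34 (unadjusted p = 0.0806). krt5 stood higher on selenium in both sexes, by 2.74 ± 1.04 and 2.24 ± 0.96, and so did ckma, by 1.19 ± 0.59 and 1.80 ± 0.55. In males the groups overlapped for both genes. Male control 2 stood at 10.28 for krt5 and 6.94 for ckma, and male 4 on selenium at 8.28 and 6.89. krt94 gave -0.91 ± 0.25 (unadjusted p = 0.00266). Among immediate early genes 12 of 38 had an unadjusted p under 0.05 in this test, where 8.52% of all genes did. Their medians were 0.064 in females and -0.18 in males, and atf3 gave 1.57 ± 0.45. They were not the only list above that share. It was also exceeded by respiratory chain genes (13 of 73, medians -0.045 in females and 0.060 in males). The same held for chloride, volume and inward rectifier channels (7 of 33) and the citric acid cycle (6 of 28). Many further lists exceeded the share too, among them fatty acid uptake and oxidation (6 of 33), coenzyme Q synthesis (2 of 8), chromatin (16 of 105) and splicing (14 of 117). The remaining lists lay below it, such as cytosolic ribosomal proteins (2 of 73).

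**Figure D5:**
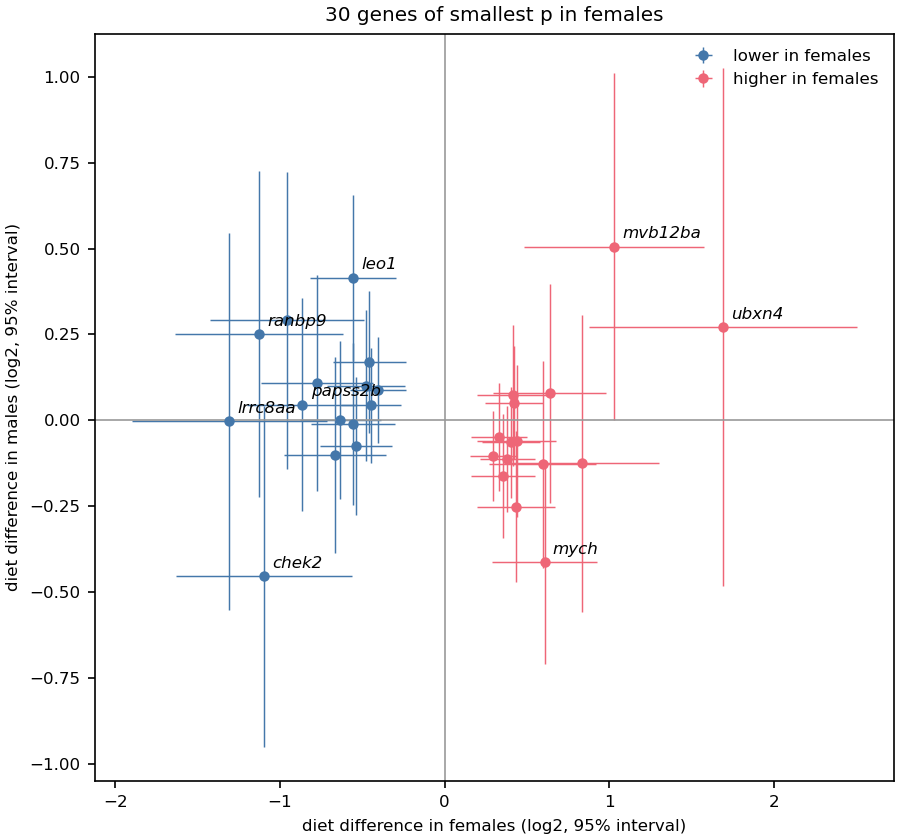
Diet difference in females (x axis) against that in males (y axis), in log2 units with 95% confidence intervals from limma, for the 30 genes of smallest p in females. By their choice the points lie away from 0 on the x axis. For most of them the interval in males includes 0; mych lies at 0.61 in females and -0.41 in males, and leo1 at -0.56 and 0.42.

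Some calls appeared when single fish were left out or males were dropped from the fit. Without control 3, limma called 5 probe sets, with adjusted p from 0.00195 to 0.0413. For phpt1, a phosphohistidine phosphatase, the called probe set stood at 5.67, 5.89 and 4.20 in controls and at 4.18, 4.36, 4.30 and 4.70 on selenium, so control 3 lay with the selenium females. The same pattern held for astn1, a neuronal migration gene, at 9.16, 9.24 and 8.57 in controls and at 8.23, 8.46, 8.48 and 8.47 on selenium, where control 3 stayed just above them, and for yipf5, a Golgi membrane gene, at 8.09, 7.98 and 7.05 in controls and at 7.30, 7.07, 7.16 and 7.30 on selenium. The other 2 were a dimmer probe set of idh3b, with 6.58, 6.29 and 4.94 in controls and 4.95, 5.01, 4.58 and 5.15 on selenium, and a probe set with no gene symbol. Males on both feeds lay near control 3 for phpt1 (4.28 to 4.70), yipf5 (6.94 to 7.25) and this idh3b probe set (4.79 to 5.25). For these 3 the low level was therefore not limited to the selenium feed. For astn1 males on both feeds lay near controls 1 and 2, between 9.01 and 9.40. Without selenium female 2 the calls were lrrc8aa, apol of the apolipoprotein L family and pacsin1b, a membrane-bending protein of endocytosis. pacsin1b stood at 9.98, 9.78 and 10.03 in controls and at 9.13, 10.07, 8.94 and 9.08 on selenium: selenium female 2 was the highest of all females and the other 3 lay at least 0.65 below every control. It was also the 1 call without control 2 and selenium female 2, the females of highest retina signal. In the 7 female arrays alone, 1 probe set with no gene symbol was called (limma adjusted p = 2.81e-06), singled out here after its values were seen. It stood at 8.26, 8.41 and 8.54 in controls and at 3.51, 3.68, 3.28 and 3.37 on selenium. Males took both levels on selenium feed, with 3.71, 3.56, 7.72 and 7.41, and the high level on control feed, between 7.72 and 8.48. In the fit over all 15 arrays its difference was -4.95 ± 0.83 and its adjusted p 0.292.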

How the data were processed

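Whole-brain RNA of 15 zebrafish was measured, 1 fish per array; per the labels' protocols, Trizol extracts were labelled with a 3′ one-cycle kit. The authors deposited log2 values, 1 for each probe set and fish, made with RMA (background correction, quantile normalisation and probe summary) and affy, per the submitters' processing notes, which give no versions. They were used as deposited, with no filter on low signal. Of 15617 probe sets, 115 manufacturer controls were left out of the tests. Symbols came from the array's annotation, with 1 updated, and 4707 probe sets had no symbol or several. No coordinates or sequences are given.

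Groups came from the labels, which name no batch. limma 3.58.1 in R 4.3.3 fitted 4 group means to 15 arrays (11 residual degrees of freedom, median residual SD 0.169); p values are two-sided and adjusted over 15502 probe sets, called under 0.05. Single control values were compared by exact permutation. Of a gene with several probe sets, the one brightest over all arrays was read unless stated. The 54 lists were described by counts and medians, not tested. The text names genes by rule: the 15 higher and 15 lower of smallest p, the 10 with the widest gap between the groups in each direction, up to 6 members per list of smallest p and members with groups apart, defining markers, and genes called under an alternative. The genes, lists and rules were chosen with earlier results of these data known. The model was checked on simulated data. The number of fish limits the precision.

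Alternatives were female arrays alone, median centring, a second quantile normalisation, gapdh or muscle signal as a covariate, a minimum mean of 5, other variance settings, array weights and each female left out. Keratin signal as a covariate and leaving out the 2 females of highest retina signal were added after seeing the data.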

Additional observations from a re-analysis of the deposited data

Results flagged for a closer look

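Among 197 groups of 4 fish examined (genes named above and list means, in selenium females), 20 had 1 fish apart from the other 3. For independent groups not chosen by their values, chance gives this in about 1 of 20. These groups are not of that kind, so the count cannot be read against that rate. apol was named for its call without selenium female 2, other genes were named by their values, and some lists share genes. Selenium female 2 stood apart most often. It was high for slc40a1 (9.91), apol (6.92), the microglia and leukocyte list mean (8.37, next fish 7.67) and the inflammation list mean (7.59). It was low for dhcr7 (10.38) and for the list means of thyroid hormone genes (6.17), ribosome biogenesis (8.16), mitochondrial ribosomal proteins (9.28) and ependyma (7.04). Selenium female 4 was low for mllt1b (8.64), eci2 (9.25) and aqp8a.1 (5.06) and high for cars1 (9.23). Selenium female 3 was high for cry4 (9.22), hsd3b2 (4.57) and cdc73 (8.29) and low for gspt1 (8.44). Selenium female 1 was low for nip7 (9.08) and astn1 (8.23) and had the highest heat shock list mean (9.33). Causes were not tested.

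Of 141 named genes, 3 had all selenium females on one side of their controls and all selenium males on the other. Many of the 141 were named because their female groups were apart. The share over all probe sets was not counted, so the 3 cannot be read against it. The female minus male difference was 0.69 for pabpn1l, -0.53 for sdhb and -0.37 for atp1b1b, with unadjusted limma p of 0.000499, 8.65e-05 and 0.00181. None passed adjustment over all probe sets, where the smallest adjusted p was 0.442.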

How the results depend on the processing

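No paired analysis was possible because the labels give each fish a number of its own. Calls in females (0 of 15502 with limma) became 1 with female arrays only and 1 without the 2 females of highest retina signal, and ran from 0 to 5 with single females left out (5 without control 3, 3 without selenium female 2); they stayed 0 under the other 8 settings, as did female minus male calls under all settings tried. Counts at an unadjusted p under 0.05 ran from 776 (without control 2) to 1512 with single females left out. Probe sets whose groups do not overlap ran from 1593 to 2728 with a fish fewer, when fewer fish need to part, and were 1551 (1323 higher, 228 lower) after centring and 781 (321 and 460) above a mean of 5. Lists with a median above 0 numbered 48 after centring, against 30, since centring moves all probe sets alike; with single females left out they ran from 24 to 33. The gapdh difference ran from 0.29 to 0.61 with single females left out. Among the named genes, gh1 ran from -1.92 to 0.13 with single females left out (0.13 without control 3) and krt4 from -0.53 to 0.28 (0.28 without control 2), and krt4 stood at 0.51 without the 2 females of highest retina signal; the causes were not tested. The others of the 141 named genes followed through these settings kept their sign wherever they were measured. Some cell type markers given above, among them mbpa and tnnt3b, were not followed in this way.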
